A study of Drosophila melanogaster with 5 samples.

Results

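The proteasome genes of Drosophila melanogaster were followed on testis ribosomes, with attention to the canonical subunits and to the paralogs that are named as their testis copies. Members were the rows of the deposited table whose gene symbol begins with Prosalpha, Prosbeta, Rpn or Rpt and a subunit number. This rule found 29 of 12847 rows, of which 19 are canonical subunits and 10 are paralogs with a T or an R after the subunit number. A further 4 rows carry CG symbols and are proteasome subunits by their gene identifiers, namely Prosbeta4 (CG17331), Prosbeta5R2 (CG31742), Rpn13 (CG13349) and Rpn13R (CG6789). They were kept apart and enter no count of members. Other subunits, among them Prosalpha3, Prosalpha6 and Rpt6, were not analysed here.

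Frozen testes, 1000 per extract, came from Batumi strain males raised at 25°C, and their ribosomes were spun down after lysis with cycloheximide, which holds ribosomes on mRNA. The males were 1 to 2 old in the labels, which give no unit of age. In 3 libraries the RNA came from the fraction of these ribosomes that was precipitated with antibodies to βNACtes (βNACtes IP), the germline form of the β partner in the NAC heterodimer (nascent polypeptide associated complex), which binds new proteins at the ribosome, and in 2 control libraries from the unselected ribosomes (total ribosomes). No genetic change was made, and both fractions share the strain and the tissue and, by the protocol, are taken from such a ribosome extract. Which of the 3 IP and 2 total libraries share an extract is not given in the labels. The table holds 1 mean value per gene for each fraction, so the spread between libraries is unknown throughout and no test between the fractions was made. The values are treated as FPKM, a level per length of transcript, and their depth is unknown.

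The 26S proteasome degrades proteins that carry ubiquitin. Its 20S core is a barrel in which rings of α subunits guard the entrance and rings of β subunits cut, with β1, β2 and β5 carrying the active sites. The 19S regulatory particle on its end holds the Rpt ATPases, which unfold the substrate and push it into the core, and the Rpn subunits, which bind ubiquitin chains, remove them and form the scaffold and the lid. The fly genome has duplicated several of these genes, and copies that are expressed in the male germline have been described as subunits of a proteasome form of spermatogenesis. Prosalpha6T is known to be needed for the individualization of sperm and the maturation of their nuclei. Since these libraries hold testis RNA only, the restriction of the copies to testis was not tested.

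The testis paralogs were placed by their gene identifiers in the BDGP6 genome annotation. On 2L lie Prosalpha6T (FBgn0032492, 13232039 to 13233058), Prosbeta4R1 (FBgn0031442, 2653046 to 2653926) and its neighbour Prosbeta4R2 (FBgn0031443, 2655394 to 2657102), all on the plus strand. On 3L lie Rpn12R (FBgn0036465, 15041631 to 15042570, minus strand) and Rpt4R (FBgn0036224, 11941912 to 11943485, plus strand). On 3R lie Prosalpha3T (FBgn0261395, 31122527 to 31123415), Prosbeta2R2 (FBgn0037296, 5217751 to 5219528), Rpt3R (FBgn0037742, 9754735 to 9756510) and Rpt6R (FBgn0039788, 30582198 to 30583697), all on the minus strand. Prosbeta2R1 (FBgn0029812, 5808954 to 5810158, plus strand) lies on the X chromosome. Of their canonical genes, Rpt3 and Rpt4 lie on the X chromosome and Prosbeta2 and Rpn12 on 3L, so that among these only Rpn12 and Rpn12R share an arm. The annotated proteins of copy and original are of similar length in most pairs, with 398 residues in Rpt4R and 397 in Rpt4, 262 in Rpn12R and 264 in Rpn12, and 322 in Prosbeta2R2 against 272 in Prosbeta2. Rpn13R is shorter than Rpn13, with 324 against 424 residues. In the transcript with the longest coding sequence, Prosbeta5R2 and Rpn13R have 1 exon, whereas Prosbeta5 and Rpn13 have 3 each.

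In each of the 9 pairs that could be formed, the paralog stood higher against its canonical subunit in the βNACtes IP than in total ribosomes. The change of the log2 ratio of paralog to canonical subunit ranged from 0.59 to 3.51 with a median of 1.74, and it was 1 or more in 8 of 9 pairs. The 9 pairs rest on 7 canonical genes, because Prosbeta2 and Prosbeta4 each serve as the partner of more than 1 copy. For the 5 pairs with both partners found by the symbol rule the change ranged from 1.03 to 2.97. A ratio of 2 genes within a column does not depend on how the columns are scaled, apart from the 0.1 FPKM added to each value before taking logarithms. In the βNACtes IP the paralog had the higher level in 5 of 9 pairs, against 2 of 9 in total ribosomes. How reads that match both genes of a pair were divided is not given in the sources used here, and the nucleotide sequences of the pairs were not compared.

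**Figure D1:**
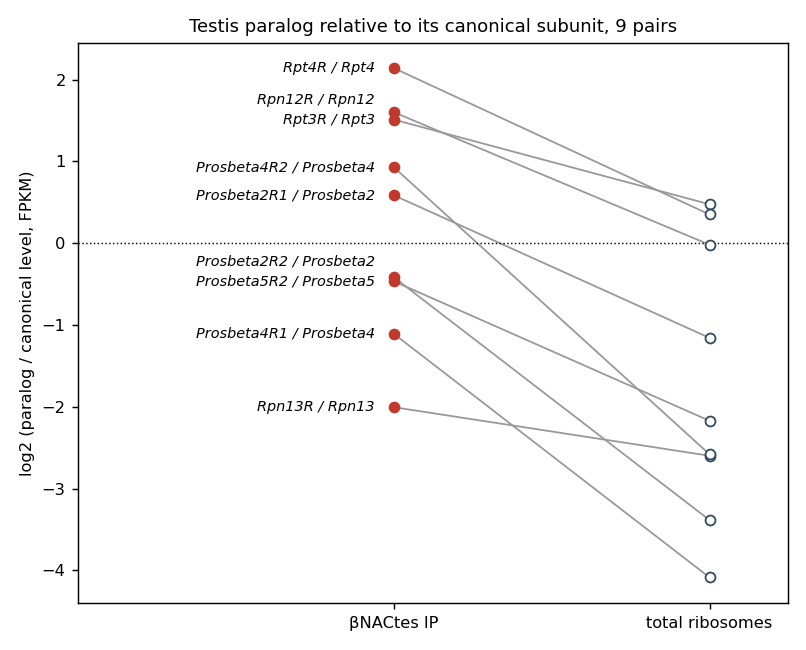
Log2 ratio of the level (FPKM) of each testis paralog to that of its canonical subunit, for the βNACtes IP (filled, left) and total ribosomes (open, right), 1 line per pair. All 9 lines are higher on the left, where 5 pairs lie above 0, against 2 on the right.

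Among the β subunits, Prosbeta2 (trypsin-like active site) had 80.0 FPKM in the βNACtes IP and 242 FPKM in total ribosomes. Its copy Prosbeta2R1 had 120 FPKM in the βNACtes IP and 109 FPKM in total ribosomes, so that the log2 ratio of copy to original was 0.58 in the IP and −1.16 in total ribosomes. The other copy, Prosbeta2R2, had 59.8 FPKM in the βNACtes IP and 23.1 FPKM in total ribosomes. Together the copies made up 69.2% of the β2 family in the IP, against 35.2% in total ribosomes. The order of original and copies thus differed between the fractions, with Prosbeta2 highest in total ribosomes and Prosbeta2R1 highest in the IP.

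Prosbeta4, a β subunit with no active site, had the lowest ratio among all subunits listed, with 85.8 FPKM in the βNACtes IP and 448 FPKM in total ribosomes. Its copy Prosbeta4R2 had 163 FPKM in the βNACtes IP and 74.7 FPKM in total ribosomes, and the neighbouring copy Prosbeta4R1 had 39.7 FPKM in the IP and 26.3 FPKM in total ribosomes. The copies made up 70.3% of the β4 family in the IP, against 18.4% in total ribosomes. For Prosbeta4R2 the ratio to Prosbeta4 was 11.4 times as large in the IP as in total ribosomes, the highest value among the 9 pairs. Prosbeta5, which carries the chymotrypsin-like site, had 77.0 FPKM in the βNACtes IP and 198 FPKM in total ribosomes. Prosbeta5R2 had 55.7 FPKM in the IP and 43.9 FPKM in total ribosomes and remained below Prosbeta5 in both fractions.

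The ATPase genes Rpt3 and Rpt4 were already below their copies in total ribosomes, and further below them in the IP. Rpt4 had 22.4 FPKM in the βNACtes IP and 93.0 FPKM in total ribosomes, whereas Rpt4R had 99.0 FPKM in the IP and 119 FPKM in total ribosomes. Rpt4R was thus 4.42 times Rpt4 in the βNACtes IP and 1.28 times in total ribosomes. Rpt3 had 30.2 FPKM in the βNACtes IP and 80.1 FPKM in total ribosomes, and Rpt3R had 86.2 FPKM in the IP and 111 FPKM in total ribosomes. The share of the copy in the pair was 81.6% for Rpt4R in the IP, against 56.0% in total ribosomes. For Rpt3R it was 74.1% in the IP, against 58.2% in total ribosomes.

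In the lid, Rpn12 had 45.5 FPKM in the βNACtes IP and 128 FPKM in total ribosomes. Rpn12R had 138 FPKM in the βNACtes IP and 126 FPKM in total ribosomes, so that copy and original were nearly equal in total ribosomes and the copy was 3.04 times the original in the IP. The ubiquitin receptor Rpn13 was the exception among the originals, since it had 368 FPKM in the βNACtes IP and 341 FPKM in total ribosomes. Its copy Rpn13R had 91.7 FPKM in the IP and 56.2 FPKM in total ribosomes, and this pair had the smallest change, 0.59 on the log2 scale.

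For 3 paralogs the canonical subunit was not analysed here. Prosalpha6T had the highest level of all paralogs, with 243 FPKM in the βNACtes IP and 221 FPKM in total ribosomes. Prosalpha3T had the lowest, with 10.8 FPKM in the IP and 4.77 FPKM in total ribosomes, so that the 2 α copies differed 22.6-fold in the IP and 46.3-fold in total ribosomes. Rpt6R had 82.7 FPKM in the βNACtes IP and 54.3 FPKM in total ribosomes. Relative to the median gene, on the scale used for all members further on, the log2 ratio of the IP to total ribosomes was 0.43 for Prosalpha3T, −0.12 for Rpt6R and −0.59 for Prosalpha6T, so that the higher level of Rpt6R and Prosalpha6T in the IP holds for the values as deposited and turns on that scale.

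**Figure D2:**
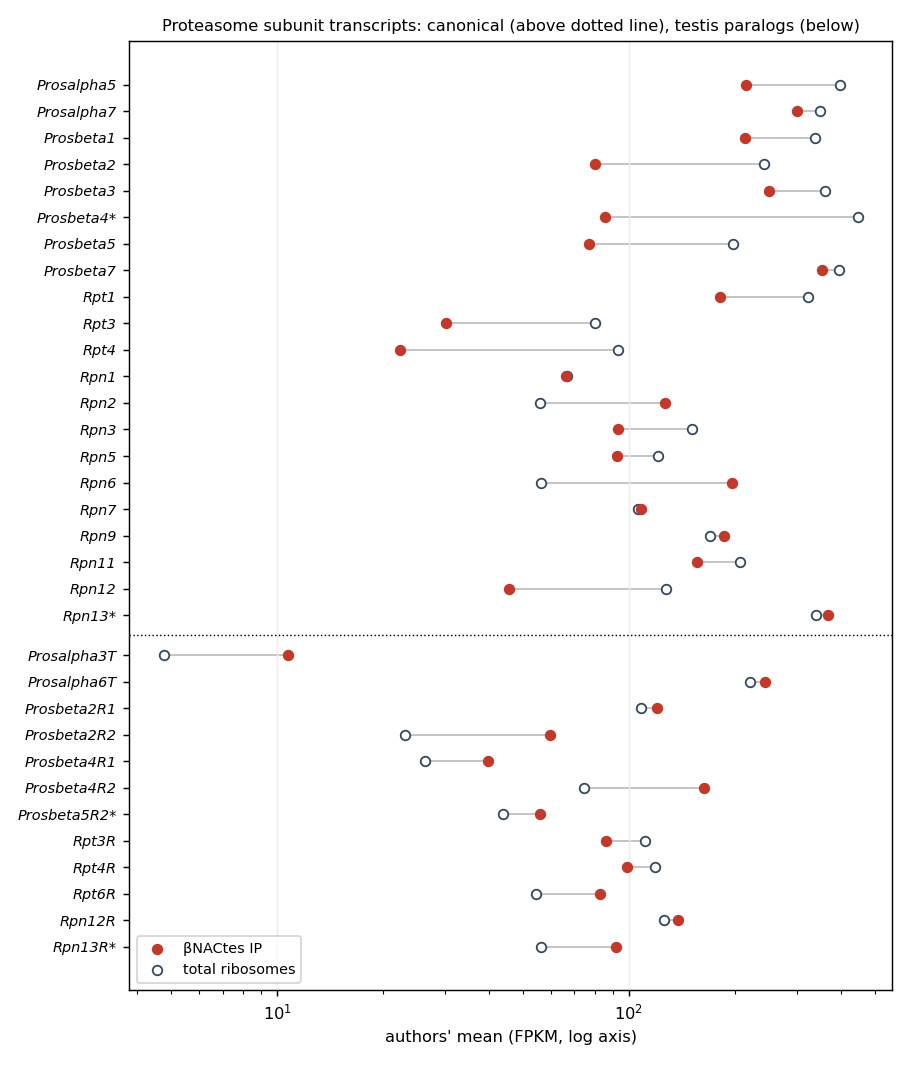
Authors' mean level (FPKM, log axis) of each canonical subunit (above the dotted line) and testis paralog (below) for the βNACtes IP (filled) and total ribosomes (open); an asterisk marks genes listed under CG symbols. Filled points lie left of open ones for 15 of the 19 canonical members and right of them for 8 of the 10 paralog members.

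To set the fractions against each other, a log2 ratio of the βNACtes IP to total ribosomes was computed on log2(FPKM + 0.1), which understates the change of low genes, and given relative to the median of the 9793 genes with a mean of at least 1 FPKM. All 29 members passed this limit. A gene with a relative ratio of 1 or more is called higher in the IP and one of −1 or less lower. Of the 29 members 13 were lower and 1 was higher, beside 29.2% of all genes lower and 26.4% higher. Of the 19 canonical subunits 12 were lower and 1 was higher, whereas of the 10 paralogs 1 was lower and none was higher. The median relative log2 ratio was −0.36 for the paralogs and −1.26 for the canonical subunits, a difference of 0.90 that was between 0.89 and 0.90 under the other scalings and pseudocounts tried. Scaling moves all genes nearly alike by construction, so it could hardly change this difference. With a mean of at least 10 FPKM required, which left out Prosalpha3T, the difference was 0.68. The direction of each list by itself depended on the scaling where ratios were not centred on the median gene, as with the values as deposited and with TPM. The canonical median was −0.53 with the values as deposited and turned to 0.31 with both columns scaled to the same sum (TPM), where the median log2 ratio of all genes was 1.55, against 0.73 as deposited. The paralog median was 0.37 as deposited and 1.21 with TPM scaling. As deposited 5 members were higher and 5 lower, beside 43.6% and 18.3% of all genes, and with TPM scaling 7 were higher and 1 lower, beside 62.1% and 8.75%. Without the limit on low values 0 members were higher and 16 lower, beside 25.7% and 27.5% of 12847 genes.

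**Figure D3:**
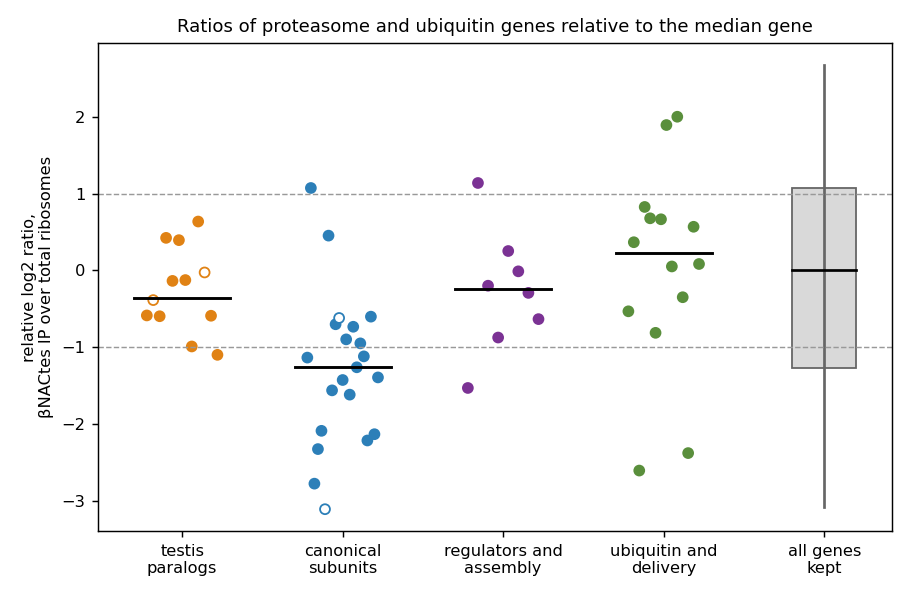
Relative log2 ratio of the βNACtes IP over total ribosomes for testis paralogs, canonical subunits, regulators and ubiquitin genes (points; open points are listed under CG symbols and are left out of the median line). The box of all 9793 genes spans the middle 50% with whiskers from 5% to 95%; paralogs have a median of −0.36 and canonical subunits of −1.26.

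The 5 canonical members for which the gene names of the annotation hold a T or R paralog were the 5 lowest of the 19. They are Rpt4 (−2.78), Prosbeta2 (−2.33), Rpn12 (−2.22), Rpt3 (−2.13) and Prosbeta5 (−2.09 relative log2 ratio). The 14 canonical members without such a paralog ranged from −1.62 to 1.08, with a median of −1.04 against −2.22 for the 5. Of these 14, 7 were lower, against 5 of 5 with a paralog, beside 29.2% of all genes. This split was made after the values had been seen and carries no test. The 5 genes were the lowest under each scaling, pseudocount, filter and length centring tried. The scalings and filters move these genes nearly alike by construction, so they could hardly change the order. With TPM scaling and no centring all 5 stayed below 0 while 13 of the 14 others were above it. The median of all genes was 1.55 on that scale. Among the genes under CG symbols, Prosbeta4 (−3.11), which has paralogs, lay below all 14, but Rpn13 (−0.62), which has one too, did not.

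The groups were less apart in level in total ribosomes. There the canonical members with a paralog had 80.1 to 242 FPKM and those without had 55.8 to 398 FPKM, so that the ranges overlapped. In the βNACtes IP those with a paralog had 22.4 to 80.0 FPKM and those without 66.4 to 353 FPKM, and Rpn1 was the single gene without a paralog inside the range of those with one. When copies and original were added up, the 20S families did not share a pattern of levels beside the 5 20S members without a paralog, which ranged from 214 to 353 FPKM in the IP and from 339 to 398 FPKM in total ribosomes. The β2 family, with 260 FPKM in the βNACtes IP and 374 FPKM in total ribosomes, lay within both ranges. The β4 family, with 289 FPKM in the IP and 549 FPKM in total ribosomes, lay above the range in total ribosomes, and the β5 family, with 133 FPKM in the IP and 242 FPKM in total ribosomes, lay below both. The relative log2 ratio of the summed family was −1.26 for β2, −1.66 for β4, −1.20 for Rpn12, −1.45 for Rpt3, −1.53 for Rpt4 and −0.52 for Rpn13. For β5 it was −1.60, without Prosbeta5R1, which was not analysed here.

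The canonical 20S members without a paralog were all below the median gene. Prosalpha5 had 215 FPKM in the βNACtes IP and 398 FPKM in total ribosomes (relative log2 ratio −1.62), and Prosalpha7 had 301 FPKM in the IP and 351 FPKM in total ribosomes (−0.95). Prosbeta1, which carries the caspase-like site, had 214 FPKM in the IP and 339 FPKM in total ribosomes (−1.39). Prosbeta3 (250 FPKM in the IP, 362 FPKM in total ribosomes) and Prosbeta7 (353 FPKM in the IP, 397 FPKM in total ribosomes) are structural β subunits with relative log2 ratios of −1.26 and −0.90. With TPM scaling and no centring the log2 ratio of Prosalpha5 was −0.05 and those of the other 4 were above 0. Subunits of the core are built into the particle in equal numbers. The 7 canonical 20S members spanned a 4.59-fold range of FPKM in the βNACtes IP and a 2.01-fold range in total ribosomes, and the SD of their log2 levels over subunits was 0.89 in the IP and 0.39 in total ribosomes. The low end in the IP was formed by Prosbeta2 and Prosbeta5. Prosbeta4, kept apart under its CG symbol, is not among these 7. It had 85.8 FPKM in the IP, and its 448 FPKM in total ribosomes lay above their highest value there, 398 FPKM.

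The regulatory particle was less uniform. Rpn6, a lid subunit that clamps the lid to the core, was the only member called higher, with 197 FPKM in the βNACtes IP and 56.1 FPKM in total ribosomes and a relative log2 ratio of 1.08, so close to the limit that it was 0.95 and not called without the filter on low values. Rpn2, a large scaffold subunit, followed with 127 FPKM in the IP and 55.8 FPKM in total ribosomes (0.45). Rpn1, the other large scaffold subunit, had 66.4 FPKM in the IP and 66.5 FPKM in total ribosomes (−0.73). The lid genes Rpn3, which had 93.3 FPKM in the IP and 151 FPKM in total ribosomes, and Rpn5, which had 92.3 FPKM in the IP and 121 FPKM in total ribosomes, had ratios of −1.43 and −1.12. Rpn11, the deubiquitinase of the lid, had 156 FPKM in the IP and 207 FPKM in total ribosomes (−1.14). Rpn7 (−0.70) and Rpn9 (−0.60), also of the lid, were between the limits. Rpt1 had 181 FPKM in the IP and 323 FPKM in total ribosomes (−1.56), the least low of the 3 ATPase genes of the canonical list. With TPM scaling and no centring the log2 ratios of Rpt1, Rpn3, Rpn5 and Rpn11 were above 0.

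The ratio also moved with transcript length. Across the 19 canonical members Spearman's rho between exonic length and relative log2 ratio was 0.47, across the 10 paralogs −0.16 and across 9700 genes with a known length 0.33, given as descriptions over genes that share the libraries. The paralogs were not longer than the canonical members, with a median of 1198 against 1393 exonic bp, and the paralog was the longer gene in 6 of 9 pairs. When genes were cut into 10 bins of equal size by exonic length and each ratio was taken relative to the median of its bin, the change within pairs ranged from 0.93 to 3.41 and was above 0 in all 9. Pairs with both genes in the same bin, such as Rpt4R and Rpt4, keep their change by construction. The 5 canonical members with a paralog were again the lowest, from −2.38 to −1.59, against −1.26 to 1.24 for the 14 without. Of the members 2 were then higher and 9 lower, beside 25.2% and 27.3% of all genes. Rpn2 was at −0.22 and Rpn1 at −1.01, whereas Rpn6 was at 1.24. Exons of other genes, on either strand, overlapped those of Rpn9 over 264 bp, Rpt4 over 93 bp, Rpn7 over 88 bp, Prosbeta2 over 82 bp, Prosbeta5 over 81 bp and Prosbeta4R2 over 69 bp.

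**Figure D4:**
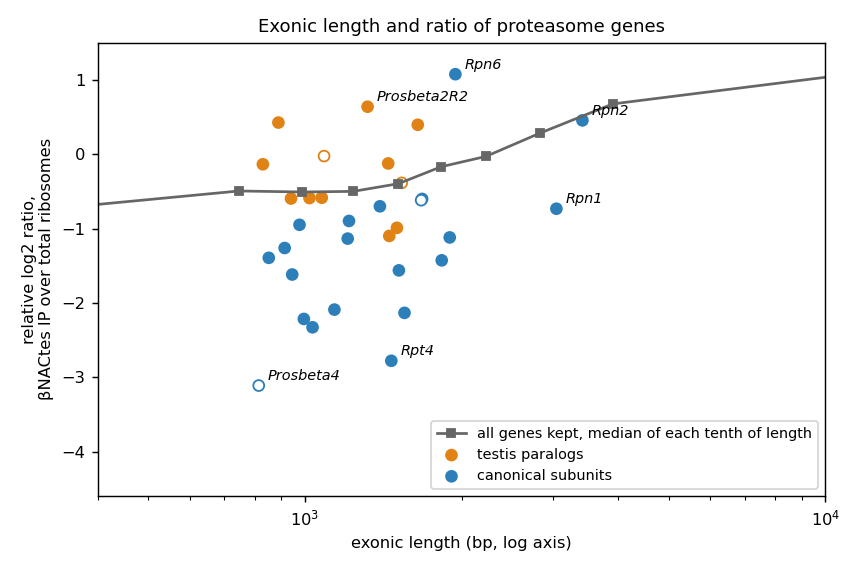
Relative log2 ratio of the βNACtes IP over total ribosomes against exonic length (bp, log axis) for testis paralogs (orange) and canonical subunits (blue), open where listed under CG symbols, with the median of all genes in bins of length (grey). The points of the shortest and the longest of the 10 bins lie outside the axis. Relative to genes of their own length bin 5 of 10 paralogs and 1 of 19 canonical subunits, Rpn6, were above 0.

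Genes that act with the proteasome had higher medians than the canonical subunits, which was not tested. Of 10 genes listed as regulators or assembly factors 8 had a row, with a median relative log2 ratio of −0.25, 1 higher and 1 lower, beside 26.4% and 29.2% of all genes. The higher one was ntc (nutcracker, an F-box protein of spermatid differentiation that binds the proteasome regulator PI31), with 94.2 FPKM in the βNACtes IP and 25.7 FPKM in total ribosomes (1.14). The lower one was Pomp, a chaperone of 20S assembly, with 64.3 FPKM in the IP and 112 FPKM in total ribosomes (−1.53, and 0.04 with TPM scaling and no centring). PI31 itself had 169 FPKM in the IP and 125 FPKM in total ribosomes (−0.29), and cnc, the relative of the Nrf factors that drive proteasome genes, had 16.2 FPKM in the IP and 8.14 FPKM in total ribosomes (0.25).

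The 14 genes for ubiquitin, its activation and the delivery of substrates had a median of 0.23, with 2 higher and 2 lower, in each direction a smaller share than the 26.4% and 29.2% of all genes. The higher ones were eff, a ubiquitin-conjugating enzyme, with 214 FPKM in the βNACtes IP and 32.0 FPKM in total ribosomes (2.00), and rngo, which binds ubiquitin and the proteasome, with 65.8 FPKM in the IP and 10.6 FPKM in total ribosomes (1.90). The lower ones were RpS27A (−2.61) and RpL40 (−2.38), whose ubiquitin is fused to a ribosomal protein. The polyubiquitin gene Ubi-p63E was at 0.67, with 356 FPKM in the IP and 135 FPKM in total ribosomes. The segregase gene TER94 was at 0.68, with 376 FPKM in the IP and 141 FPKM in total ribosomes. Npl4 has a second row under CG4673, and the row under its own symbol was used.

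Markers of cell types were set beside the same shares of all genes, 26.4% higher and 29.2% lower. All 5 accessory gland markers with a row (of 6 listed) were lower, with a summed level of 8378 FPKM in the βNACtes IP and 36189 FPKM in total ribosomes. The 4 spermatid markers with a row (of 6) summed to 14902 FPKM in the IP and 4382 FPKM in total ribosomes, and 3 of them were higher. The 11 germline and spermatocyte markers summed to 1911 FPKM in the IP and 2006 FPKM in total ribosomes, with 4 higher and 2 lower, and most of both sums was betaTub85D, with 1245 FPKM in the IP and 1693 FPKM in total ribosomes. The median log2 ratio of these 11 was 0.50 as deposited and −0.23 relative to the median gene, and vas was low in both, with 3.32 FPKM in the IP and 2.52 FPKM in total ribosomes. The 5 muscle sheath markers summed to 122 FPKM in the IP and 126 FPKM in total ribosomes, mostly from Act57B, with 80.8 FPKM in the IP and 101 FPKM in total ribosomes. The other 4 had higher levels in the IP as deposited, and the median log2 ratio of the 5 was 1.20 as deposited and 0.47 relative to the median gene. The 5 somatic cyst and hub markers with a row (of 6) summed to 18.8 FPKM in the IP and 8.58 FPKM in total ribosomes, where tj is listed at 0. Of the 4 with a mean of at least 1 FPKM, 2 were higher and 1 was lower, with a median relative log2 ratio of 0.47. The part of these cells in the ratios of paralogs and canonical subunits was not tested. In such pooled tissue the number of cells of a type and the RNA per cell cannot be told apart within a level. By the protocol the IP is drawn from a ribosome extract of this tissue with antibodies to βNACtes. How far the mix of cells in the extract enters the ratio between the fractions was not tested.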

How the data were processed

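Testis ribosome RNA was sequenced in 5 libraries (3 βNACtes IP, 2 total ribosomes). The authors deposited 1 table with a mean per gene and fraction in FPKM and a column with the log2 ratio of the fractions, which was not used. The unit is not named in the table. FPKM was inferred from Cufflinks 2.2.1 in the submitters' processing notes and from the sums of the columns. Values sum to 802728 for the βNACtes IP and 1435535 for total ribosomes, but to 1098119 and 1098789 once multiplied by exonic length in kilobases. The notes also name TopHat2 2.0.14, Bowtie, Bowtie2 and the dm3 build. The annotation, the strand and how multiply aligned reads were handled are not given in the sources used here.

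Ratios were computed on log2(FPKM + 0.1) and centred on the median of genes with a mean of at least 1 FPKM; 1 was the limit for a call. Without library values the precision is unknown, and no test was run. Every gene under the symbol rule was named, and other genes came from lists of regulators, ubiquitin genes and cell type markers. The members and lists were chosen with earlier results of these data known. Exonic lengths, coordinates and residues come from Ensembl release 115 of BDGP6, which matched 98.9% of rows. Sequences were not used here. Alternatives were other scalings, pseudocounts (1 and 0.01) and filters and, chosen after the data were seen, centring by length, adding the CG-listed subunits and leaving out members with overlapping exons. The scripts were tested on simulated data. Calculations ran in Python 3.11.15 (numpy 2.4.6; pandas 2.3.3) and plots were drawn with matplotlib 3.10.9.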

Additional observations from a re-analysis of the deposited data

How the results depend on the processing

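No paired analysis was possible because the table holds 1 mean per fraction and no values of single libraries, and for the same reason no library could be left out in turn. The changes within the 9 pairs kept their direction and their side of 1 with pseudocounts of 1 and 0.01 and with centring within 10 bins of exonic length, the last chosen after the data were seen. The pseudocounts could hardly move them, since no gene of a pair was below 22.4 FPKM. Length centring could not move pairs with both genes in the same bin, namely those of Prosbeta2R1, Prosbeta4R1, Rpn12R, Rpt3R and Rpt4R. The difference between canonical subunits with and without a paralog, −1.18, lay between −1.18 and −1.04 under the scalings, pseudocounts, filters and length centring, and was not computed without members whose exons overlap other genes. Counts and levels depended on the scaling where ratios were not centred on the median gene, as with the values as deposited and with TPM. Of the 29 members 5 were higher and 5 lower as deposited, beside 43.6% and 18.3% of all genes. With TPM scaling 7 were higher and 1 lower, beside 62.1% and 8.75%. After centring 1 was higher and 13 were lower, beside 26.4% and 29.2%. Without the filter 0 were higher, beside 25.7%, and with length centring 2 were, beside 25.2%. The canonical median was −0.53 as deposited, 0.31 with TPM scaling and −0.95 with length centring, and the paralog median was 1.21 with TPM scaling. The paralogs exceeded the canonical subunits by 1.05 with length centring. With TPM scaling and no centring the median of all genes was 1.55. There called genes changed sign to 0.17 for Prosbeta1, 0.31 for Prosbeta3, 0.43 for Rpn11, 0.14 for Rpn3, 0.45 for Rpn5, 0.0055 for Rpt1, 0.47 for Rpt3R and 0.036 for Pomp. The scalings move all genes nearly alike by construction, whereas length centring moves them by bin. Leaving out the filter moved the centre, the median log2 ratio of all genes, from 0.73 to 0.86, and so lowered each relative ratio by the same amount. The table gives no depth, so that the precision of low values such as those of Prosalpha3T is unknown.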
